A study of Bos taurus with 8 samples.

Results

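The simple epithelial keratins are KRT7 and KRT8 (type II) and KRT18 and KRT19 (type I). They were taken as every probe on the array whose platform annotation gives one of these 4 symbols. Each symbol had 1 probe, so the set holds 4 of 43795 probes, and 4 of the 15229 genes named on the array. The array carries 40 further keratin genes. RNA from bovine blastocysts grown in the cow and flushed from the uterus (in vivo) was hybridised together with RNA from blastocysts matured, fertilized and cultured in the laboratory (in vitro) on 8 two-colour arrays. There were 4 replicates of each kind of embryo. Each replicate pair was hybridised once with in vitro RNA in Cy5 (slide 58) and once with in vivo RNA in Cy5 (slide 61).

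The in vivo embryos came from Holstein females whose follicles over 8 mm had been aspirated and that were then given 400 mg FSH in 8 falling doses and 500 µg doses of a prostaglandin analogue. They were inseminated 12 and 24 h after oestrus and flushed 7.5 days after the first insemination. Their collection is labelled as day 7. The in vitro embryos were collected 168 h after fertilization, from oocytes of follicles of 2 to 6 mm. Their source is given as slaughterhouse ovaries in one label and as ovum pick-up in another. Both kinds shared pooled semen. FSH treatment and oocyte donors differ wholly between the kinds of embryo, so their part in a difference cannot be told apart from that of the place of development. Collection was timed from insemination in vivo and from fertilization in vitro, so a part of embryo age or stage cannot be told apart either. No source used here gives the number of embryos per replicate, and RNA was amplified before labelling.

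Keratins assemble as pairs of 1 type I and 1 type II protein into intermediate filaments that give epithelial cells mechanical strength and that attach to desmosomes through plakin proteins. KRT8 and KRT18 are the first such pair of the mammalian embryo. They mark the trophectoderm, the outer epithelium that pumps up the blastocoel and later forms the placenta, and KRT7 and KRT19 accompany them in simple and placental epithelia. The inner cell mass makes little keratin. In whole blastocysts, a smaller share of trophectoderm cells and less keratin RNA per cell cannot be told apart.

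No probe sequence or keratin sequence was used here. How far a probe also binds other keratin transcripts was not tested. On the ARS-UCD2.0 assembly KRT18 and KRT8 are direct neighbours among protein-coding genes. The gene on the far side of KRT18, EIF4B, a translation initiation factor gene, gave a log2 ratio of -0.44 and was not called. KRT78 and KRT79, beyond KRT8, gave -0.15 and 0.11 and were not called.

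Brightest spots read 35630 to 40155 per channel, and the negative controls' 95th percentile read 76.1 to 229. Replicate 2 stood apart before any keratin was considered: its ratios correlated across tested probes at 0.386 to 0.459 with the other replicates, which correlated at 0.804 to 0.822 with each other. Of the trophectoderm markers all 9 were measured above background in at least 1 kind of embryo. Of the inner cell mass markers NANOG, POU5F1, SOX2 and TDGF1 were too. Log2 ratios set the in vitro over the in vivo embryos throughout. A mean is over 4 replicates, each the average of its 2 arrays, with the SE and adjusted p from limma fitted on all 24775 detected probes (Benjamini-Hochberg, threshold 0.05).

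KRT19 and KRT18, the type I members, were lower in vitro, by 5.66-fold and 2.75-fold. KRT7 gave 1.20-fold in the same direction and did not pass the threshold. KRT8, a partner of KRT18, read so close to the scanner's ceiling that no fold is given. Its mean log2 ratio was below 0 and did not pass. Thus 2 of 4 members were called lower, where 8.80% of all tested probes were called lower, 7.01% higher and 15.8% either way. KRT7, KRT18 and KRT19 were lower on 8 of 8 arrays and KRT8 on 7 of 8. Over the array 10.3% of tested probes were lower on 8 of 8 arrays. The labels' 4 replicates are called biological in the design text, so the p-values measure the spread between those replicates.

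KRT19 forms filaments in many simple epithelia and lacks most of the tail domain that other keratins carry. With in vitro RNA in Cy5, its in vitro spot read 2328, 4206, 998 and 2118 in replicates 1 to 4, and its in vivo spot read 19296, 14492, 17897 and 12170. With the dyes swapped, the in vitro spot read 2924, 5441, 1002 and 2558 and the in vivo spot 12676, 10171, 10835 and 8335. In vivo intensity lay above in vitro intensity on every array. In vitro readings ran from 998 to 5441 and in vivo readings from 8335 to 19296. The share of all probes with such separate ranges was not counted. The log2 ratio was -3.10, -1.57, -4.22 and -2.63 on slide 58 and -2.25, -0.79, -3.64 and -1.80 on slide 61. Replicate 3 gave the lowest and replicate 2 the highest ratio on both slides.

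Over the replicates KRT19 gave -2.68, -1.18, -3.93 and -2.21, a mean of -2.50 ± 0.44 (adjusted p = 0.0250). It was the probe with rank 3 from the lowest of the 24775 ratios. Without replicate 1, 3 or 4 the limma adjusted p was 0.104, 0.0573 and 0.0941, and with a prior that follows the mean level it was 0.293, so its call rests on all of these replicates and on the constant prior. Without replicate 2 the mean was -2.94 (adjusted p = 0.00992).

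KRT18 is the usual type I partner of KRT8 in early epithelia, where KRT19 can also pair with KRT8. On slide 58 its in vitro spot read 8458, 11446, 6524 and 2436 in replicates 1 to 4 beside in vivo readings of 14866, 21164, 20885 and 11006. On slide 61 the in vitro readings were 7970, 10414, 5824 and 2342 and the in vivo readings 13697, 22633, 19124 and 9536. Each array showed the lower reading in vitro, while the ranges of the kinds overlapped across arrays, from 2342 to 11446 in vitro and from 9536 to 22633 in vivo. Its log2 ratio was -0.92, -0.81, -1.92 and -2.29 on slide 58 and -0.85, -0.94, -1.82 and -2.12 on slide 61.

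Both dye orientations thus gave KRT18 nearly the same ratio in each replicate, and replicates 3 and 4 had the larger falls. The replicate ratios of -0.89, -0.87, -1.87 and -2.20 gave a mean of -1.46 ± 0.27 (adjusted p = 0.0273). Without replicate 1, 3 or 4 the limma adjusted p was 0.0688, 0.110 and 0.0828. Without replicate 2 the mean was -1.65 (adjusted p = 0.0195).

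**Figure D1:**
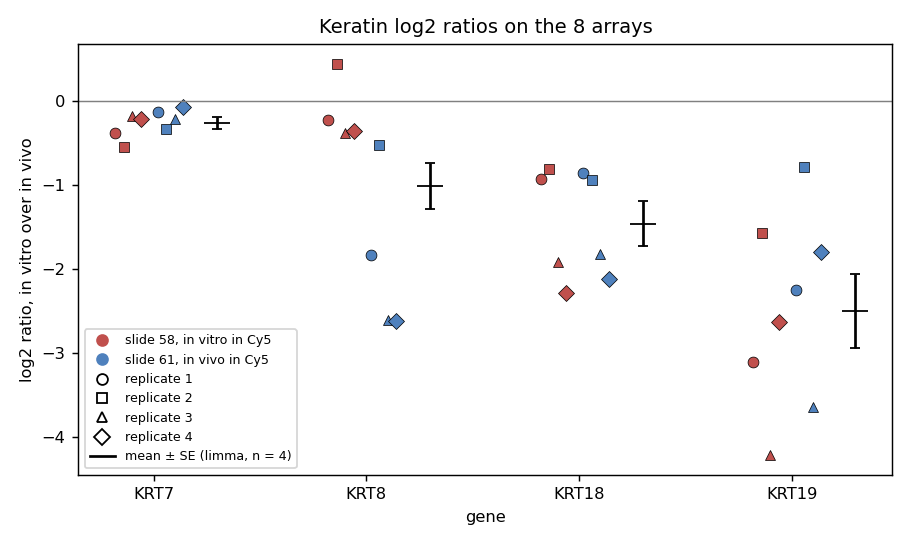
The log2 ratio in vitro over in vivo (y axis) of the 4 keratin probes (x axis) on each array, coloured by slide and shaped by replicate, with the mean ± SE from limma (n = 4) in black. KRT18 has like values on both slides, KRT8 lies lower on slide 61 than on slide 58, and the square of replicate 2 is the highest point of KRT19 on each slide.

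KRT8 read close to the top of the scanner's range. A spot within 10% of the brightest spot of its channel is called near the ceiling here. There were 84 to 229 such spots per channel. The in vivo KRT8 spot was near the ceiling on 7 of 8 arrays and the in vitro spot on 4 of 8, the 4 with in vitro RNA in Cy5. On slide 58 the in vitro spot read 35612, 38350, 36677 and 37204 in replicates 1 to 4 and the in vivo spot 34405, 26838, 35476 and 36308. On slide 61 the in vitro spot read 10668, 22153, 6618 and 6318 and the in vivo spot 37785, 37261, 38356 and 38500. The kinds overlapped on slide 58. On slide 61, with each in vivo spot near the ceiling, they were apart, and the share of probes so placed was not counted.

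The KRT8 log2 ratio was -0.22, 0.45, -0.37 and -0.36 on slide 58 and -1.83, -0.52, -2.61 and -2.61 on slide 61. Its mean over both slides was -1.01 ± 0.27 (adjusted p = 0.0688). On slide 58 both spots of replicates 1, 3 and 4 were near the ceiling, so those arrays give no fold. In replicate 2 of slide 58 only the in vitro spot was near it, and that array gave the ratio of 0.45, higher in vitro. On slide 61 only the in vivo spot was near it in each replicate, and the mean there was -1.89 (adjusted p = 0.0219 for that slide alone). Each slide is 1 dye orientation, and the direction of KRT8 on replicate 2 differed between them. On every array the Cy5 spot was near the ceiling, whichever kind of embryo it carried. In Cy3, the in vitro spot of slide 61 read below the in vivo spot of slide 58 in each replicate. That sets raw readings of different slides side by side and was not tested. The parts of dye and ceiling in the slide 61 ratio were not separated. No KRT8 ratio given here measures a fold, and how far the ceiling moves them was not tested. Without replicate 2 the mean over both slides was -1.33 (adjusted p = 0.00592). With the median over a spot's pixels in place of the mean, a setting chosen after these readings were seen, KRT8 gave -1.13 (adjusted p = 0.0306).

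The difference between slides was tested by limma on the 4 within-replicate differences, slide 58 minus slide 61. KRT8 gave 1.77 ± 0.20 (adjusted p = 0.000287) and KRT19 -0.76 ± 0.06 (adjusted p = 5.59e-05), both with 1 sign in 4 of 4 replicates. KRT18 gave -0.05 ± 0.06 (adjusted p = 0.511) and KRT7 -0.15 ± 0.06 (adjusted p = 0.0632). A difference between slides was common: 68.3% of all tested probes were called for it, with a median absolute difference of 0.26. By absolute size KRT8 was at rank 303 of 24775 and KRT19 at rank 2031. The KRT19 ratio was past the threshold on each slide alone, at -2.88 (adjusted p = 0.00809) on slide 58 and -2.12 (adjusted p = 0.0265) on slide 61. For KRT18 the slides gave -1.48 (adjusted p = 0.0170) and -1.43 (adjusted p = 0.0148).

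**Figure D2:**
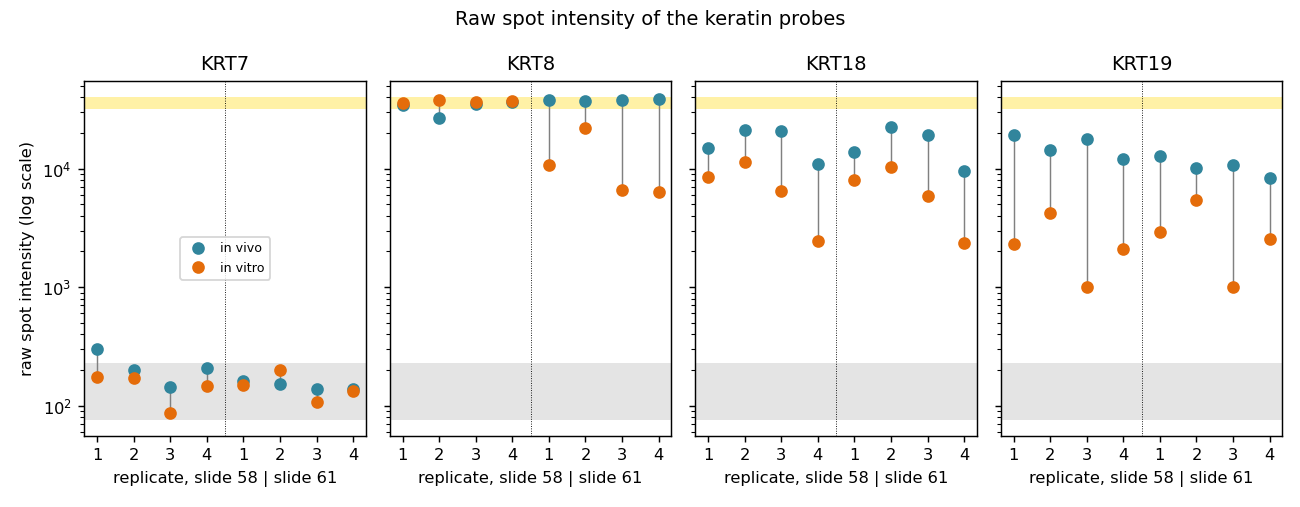
Raw spot intensity on a log scale (y axis) of the in vivo (blue) and in vitro (orange) RNA on each array (x axis, replicates 1 to 4 of slide 58 and then of slide 61), joined by a line per array. The yellow band runs from 10% below the dimmest channel's brightest spot to the brightest of all, the grey band over the 95th percentiles of the negative controls. KRT8 lies in the yellow band in both kinds on most of slide 58 and KRT7 lies in or near the grey band.

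KRT7, a type II keratin of ductal and placental epithelia, was barely above background. Its spots read 87.2 to 199 in vitro and 137 to 299 in vivo, which is 1.02 to 1.61 times the negative control percentile of the same channel. It exceeded that percentile on 8 of 8 arrays in both kinds. Before normalization the in vitro spot was the brighter on 1 array, replicate 2 of slide 61. The log2 ratio was -0.38, -0.54, -0.18 and -0.22 on slide 58 and -0.12, -0.34, -0.21 and -0.07 on slide 61. All 8 were below 0, and the mean of -0.26 ± 0.07 did not pass the threshold (adjusted p = 0.0754). So close to background its fold may be understated. It passed on slide 58 alone at -0.33 (adjusted p = 0.0449) and without replicate 2 at -0.20 (adjusted p = 0.0497).

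Levels in each kind of embryo, on the normalized log2 intensity scale, showed where the replicates spread. The KRT19 level in vitro was 11.23, 12.31, 9.84 and 11.22 in replicates 1 to 4 (SD 1.01), and in vivo it was 13.91, 13.49, 13.77 and 13.44 (SD 0.23). KRT18 was at 12.90, 13.45, 12.49 and 11.26 in vitro (SD 0.93) and at 13.79, 14.33, 14.36 and 13.46 in vivo (SD 0.44). Both type I keratins thus varied more among in vitro than among in vivo replicates, and this difference in spread was not tested. Over all tested probes the median SD was 0.17 in vitro and 0.15 in vivo, and it was larger in vitro in 57.9%. For KRT8 the SD was 0.51 in vitro and 0.18 in vivo, where most in vivo spots were near the ceiling. For KRT7, close to background, it was 0.08 in vitro and 0.06 in vivo, so a larger SD in vitro was not particular to type I.

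Differences between members in log2 ratio were tested over all 6 pairs with an exact two-sided sign-flip permutation test of the 4 replicate differences. With 4 replicates all of 1 sign this test gives its smallest p, which is above the threshold, so no pair can pass it. KRT19 minus KRT18 was -1.79, -0.30, -2.06 and -0.01, a mean of -1.04 ± 1.03 (SD, n = 4, adjusted p = 0.188 by the exact test over the 6 pairs). The KRT19 ratio was below that of KRT18 in 4 of 4 replicates, by little in replicates 2 and 4. KRT19 minus KRT7 gave -2.24 ± 1.23 (SD, n = 4), with all 4 differences negative and the same exact p. KRT18 minus KRT7 gave -1.20 ± 0.79 with the same exact p. The 3 pairs with KRT8 carry its readings near the ceiling, so their differences order no genes. By slide, KRT18 minus KRT8 was -1.36 on slide 58 and 0.46 on slide 61, KRT19 minus KRT8 was -2.75 and -0.23, and KRT8 minus KRT7 was 0.20 and -1.71.

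The other keratins are mostly of stratified epithelia and hair, and nearly all lay close to 0. Of 40 further keratin genes on the array, 19 were above background in at least 1 kind of embryo, 7 of 20 type I and 12 of 19 type II. Only 1 of the 19 was called, KRT14, the basal layer keratin, at -0.31 ± 0.06 (adjusted p = 0.0329). Among all tested genes 11.1% were called lower and 8.10% higher. The median of the 19 was 0.02, against -0.01 over all 10188 tested genes. KRT14 was above background on 5 of 8 arrays in vitro and 8 of 8 in vivo, so it entered the test through the in vivo embryos alone. With detection required in both kinds the count was 0 of 16, and it was 0 with pixel medians and without replicate 1, 3 or 4. Without replicate 2 the count of other keratins called lower was 2.

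The remaining tested type I keratins were KRT17 (0.03), KRT24 (-0.04), KRT25 (0.15), KRT27 (-0.01), KRT35 (-0.10) and KRT36 (0.10). The type II keratins were KRT6A (0.02), KRT73 (0.08), KRT74 (-0.02), KRT78 (-0.15), KRT79 (0.11), KRT80 (0.13), KRT81 (-0.04), KRT82 (0.03), KRT83 (-0.01), KRT84 (0.07), KRT85 (-0.14) and KRT86 (0.06). Their adjusted p ran from 0.205 for KRT25 to 0.947 for KRT83.

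**Figure D3:**
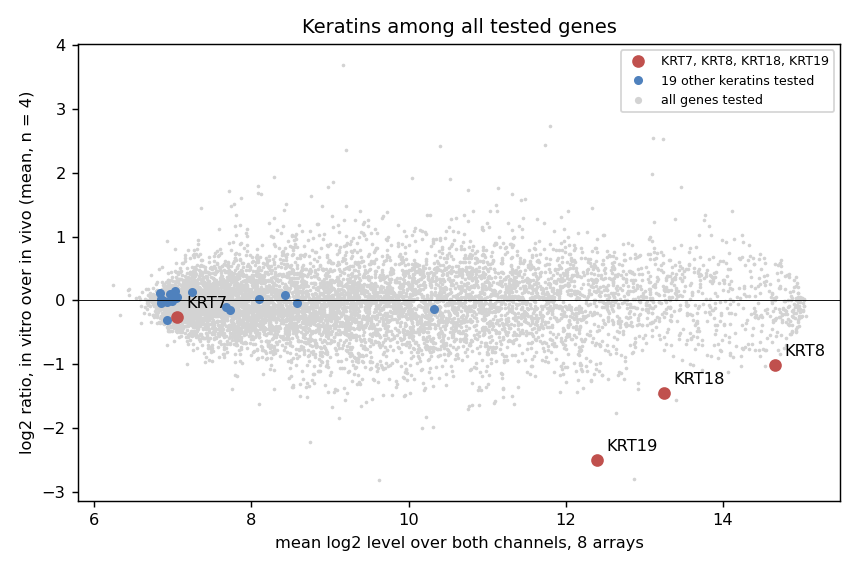
The mean log2 ratio in vitro over in vivo (y axis) against the mean log2 level of both channels (x axis) for each tested gene (grey), the 19 other keratins (blue) and the 4 simple epithelial keratins (red). KRT8, KRT18 and KRT19 have lower ratios than the 19 other keratins, which lie around 0. Levels of different probes are not on a common scale.

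Other intermediate filament genes were tested as a list, chosen like the lists below with earlier results of these data known. Of 9 tested, 0 were lower and 1 was higher by limma, with 1 at an unadjusted p under 0.05. The called counts are near the shares over all tested genes, 11.1% lower and 8.10% higher. For counts at an unadjusted p, here and in the lists below, the share over all tested genes is not given. The higher one was SYNC (syncoilin), a filament protein of muscle, at 1.18 ± 0.15 (adjusted p = 0.0124). SYNC was not called without replicate 3 or 4. Another tested probe of INA, a neuronal filament gene, was called higher, while the probe that stands for the gene gave 0.39 and was not called. VIM, the mesenchymal filament vimentin, gave 0.09 ± 0.25 (adjusted p = 0.893), and the nuclear lamina gene LMNB1 gave -0.28 ± 0.25 (adjusted p = 0.560). The list median was -0.02.

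The keratin linkers were a list of plakins, desmosomal plaque genes and related genes, not all of which tie keratin to the desmosome. Of 9 tested, 3 were lower and 0 higher, where 11.1% of all tested genes were lower and 8.10% higher. The list median was -0.14. At an unadjusted limma p under 0.05 there were 5, with no share over all tested genes given at that threshold. PPL (periplakin), which binds KRT8, fell by 0.81 ± 0.13 on the log2 scale (adjusted p = 0.0202). DSP (desmoplakin), the main link from keratin to desmosome, fell by 0.67 ± 0.09 (adjusted p = 0.0131). PKP4, a plakophilin-related armadillo protein, fell by 0.81 ± 0.07 (adjusted p = 0.00701). Its ratio was -0.33 on slide 58 and -1.29 on slide 61, while DSP gave -0.69 and -0.66 and PPL -0.88 and -0.75. All 3 were lower on 8 of 8 arrays. JUP (plakoglobin) gave -0.27 ± 0.09 (adjusted p = 0.118) and PKP2 -0.14 ± 0.20 (adjusted p = 0.750). The count of lower linkers was 1 without replicate 1, without replicate 3 and without replicate 4, 3 without replicate 2, and 1 with median centring in place of loess.

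Of 6 tested desmosomal cadherins and epithelial adhesion genes 0 were lower and 2 higher, beside 11.1% and 8.10% of all tested genes, with a median of 0.03. DSG2, the desmoglein of simple epithelia, rose by 0.91 ± 0.12 (adjusted p = 0.0123) and EPCAM, an epithelial adhesion molecule, by 0.96 ± 0.19 (adjusted p = 0.0323). The other probes of DSG2 that were tested were not called. DSC2 gave -0.36 ± 0.10 (adjusted p = 0.0838). It was above background on 5 of 8 arrays in vitro and 8 of 8 in vivo, so it entered the test through the in vivo embryos alone. CDH1 (E-cadherin) was above background on 7 of 8 arrays in each kind and was not tested. Without replicate 2, 1 adhesion gene was called lower. The count of higher genes was 0 without replicate 1, without replicate 3 and without replicate 4, 2 without replicate 2, and 1 with median centring or with no filter on dim probes.

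The 14-3-3 proteins, which bind phosphorylated KRT18 among many partners, moved both ways. Of 7 tested, YWHAE (-1.08 ± 0.17, adjusted p = 0.0197), YWHAB (-0.78 ± 0.06, adjusted p = 0.00701) and YWHAG (-0.46 ± 0.09, adjusted p = 0.0298) were lower. YWHAQ (0.64 ± 0.06, adjusted p = 0.00833) and YWHAH (0.59 ± 0.07, adjusted p = 0.0110) were higher, and the list median was -0.46. The shares over all tested genes were again 11.1% lower and 8.10% higher. The YWHAE call is uncertain, as its other tested probes were called higher. SFN (stratifin), the epithelial member, gave -0.50 ± 0.17 (adjusted p = 0.120). Without replicates 1 to 4 in turn the lower count was 2, 3, 1 and 1 and the higher count 1, 2, 1 and 0, and with median centring each was 1.

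Transcription factors of the trophectoderm and of keratin genes were the last list. Of 25 tested, 4 were lower and 1 was higher, shares close to the 11.1% and 8.10% of all tested genes. The list median was -0.13. At an unadjusted limma p under 0.05 there were 11, with no share over all tested genes given at that threshold. OVOL1 (above background on 4 of 8 arrays in vitro and 8 in vivo), CDX2 (6 and 8) and MSX2 (6 and 8) entered through the in vivo embryos alone. TEAD4 (8 and 6) and FOSL2 (8 and 5) entered through the in vitro embryos alone. FOS, an AP-1 subunit (AP-1 acts on the human KRT18 gene), fell by 2.00 ± 0.09 on the log2 scale (adjusted p = 0.00617). Another tested FOS probe was not called. TFAP2A fell by 1.41 ± 0.22 (adjusted p = 0.0179) and GATA2 fell by 1.08 ± 0.09 (adjusted p = 0.00727). DLX3, a placental homeobox factor, fell by 0.45 ± 0.10 (adjusted p = 0.0479). TFAP2C, the other AP-2 factor of the trophectoderm, rose by 0.67 ± 0.10 (adjusted p = 0.0165), with its other tested probes not called. Without replicates 1 to 4 in turn the lower count was 2, 7, 2 and 2 and the higher count 0, 1, 0 and 0. In the replicate block over all 8 arrays 8 factors were lower, and on slide 61 alone 7.

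Replicate 2, which stood apart over all probes, held the highest ratio of KRT8, KRT18 and KRT19 and the lowest of KRT7. For KRT18 it was barely above replicate 1, at -0.87 against -0.89, and on slide 61 it was below it. Among the 4 factors called lower, TFAP2A (-2.21), GATA2 (-1.38) and DLX3 (-0.64) had their lowest ratio there and 0 of 4 their highest. For DLX3 it was barely below replicate 1, which also rounds to -0.64. Replicate 2 held the highest ratio of 40.2% and the lowest of 37.3% of all tested genes, so either position is common. Of the 25 tested factors 11 had their lowest and 6 their highest ratio in replicate 2.

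**Figure D4:**
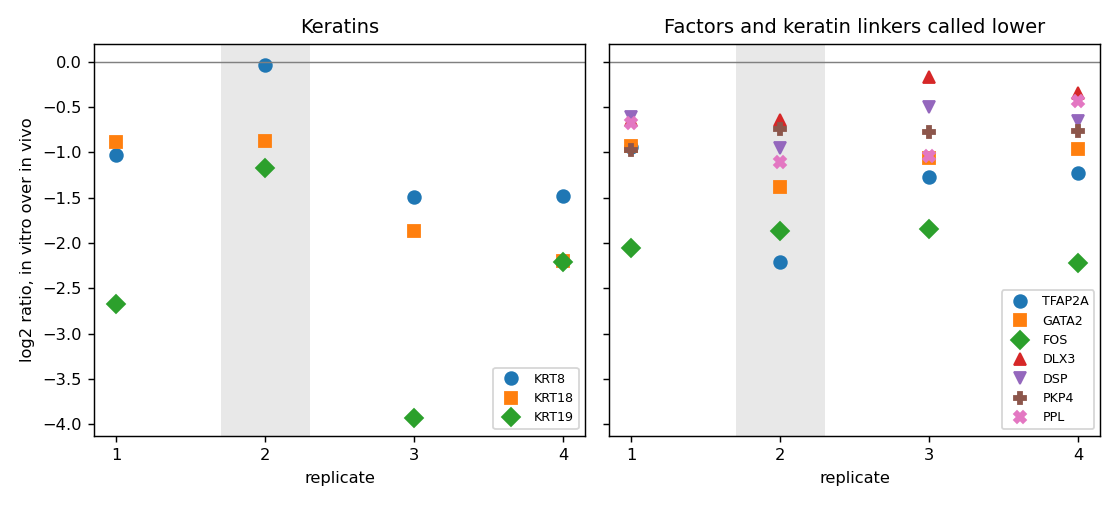
The log2 ratio in vitro over in vivo (y axis) in each replicate (x axis, replicate 2 shaded) for KRT8, KRT18 and KRT19 on the left and for the 7 factors and keratin linkers called lower on the right. KRT8 and KRT19 are nearest to 0 in replicate 2, where TFAP2A is at -2.21.

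Genes closest to each member over the 8 array ratios were found by the root mean square difference among 9525 other named genes, as a description. KRT18 was nearest to PRSS8, a channel-activating serine protease gene (difference 0.34), TYRO3, a receptor tyrosine kinase gene (0.34), and CAPG, an actin-capping gene (0.35), with mean ratios of -1.64, -1.40 and -1.65. KRT19 was nearest to TDGF1, a Nodal co-receptor gene (0.78), ALDOA, a glycolytic enzyme gene (0.96), and CAPG (1.13). For KRT8 no gene came closer than 0.70, the distance to RAD54L. KRT7 lay within 0.06 to 0.09 of DQX1, KATNAL2 and PDE4DIP.

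Simple keratins are also abundant in oviduct and uterine epithelium, which flushing could carry over, and they occur in granulosa cells. Of 9 oviduct and uterine epithelial markers on the array, 4 were above background in at least 1 kind of embryo and 0 were called by limma, with 0 at an unadjusted p under 0.05. Over all tested genes 11.1% were lower and 8.10% higher, so 0 calls among 4 genes is not unusual. ESR1 and MUC16 were above background on 0 of 8 arrays in either kind. PAX8 and FOXJ1 were above it on 8 of 8 arrays in both kinds, with ratios of -0.11 and -0.02, HOXA10 on 7 in vitro and 8 in vivo, and SCGB1A1 on 6 and 8. OVGP1, the oviductal glycoprotein, was above it on 5 of 8 in each, with a ratio of -0.08. Mean levels of the list ran from 6.73 to 6.89 in vivo and from 6.75 to 6.78 in vitro. On slide 61 alone 1 of these markers was called lower.

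Of 6 tested cumulus and granulosa markers 1 was lower, HSD3B1, a steroid-synthesis enzyme that trophoblast also makes, at -1.56 ± 0.23 (adjusted p = 0.0158). The others gave ratios from -0.33 to 0.00. The lower count was 0 without replicate 1 and without replicate 3 and 2 on slide 61 alone, while slide 58 alone gave 1 higher. Mean levels of this list ran from 6.97 to 7.14 in vitro and from 7.25 to 7.42 in vivo. Of 4 tested blood markers 0 were called by limma, with 0 at an unadjusted p under 0.05. Counts of 0 or 1 among so few genes are near the shares of 11.1% lower and 8.10% higher over all tested genes. The part of carried-over cells in the keratin ratios was not tested.

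Embryo lineage markers were read against the same shares over all tested genes, 11.1% lower and 8.10% higher. Of 9 trophectoderm markers 4 were lower and 1 higher, with a median of -0.88. The count and the median include the members KRT8 and KRT18, so they are no separate reading beside the keratins. The higher one was TFAP2C (0.67 ± 0.10), and IFNT gave -0.35 ± 0.23 and was not called. Beside KRT18 and TFAP2A the lower ones were TKDP1 (-1.85 ± 0.08, adjusted p = 0.00617), a trophoblast Kunitz domain protein gene, and PAG2 (-0.88 ± 0.19, adjusted p = 0.0412), a pregnancy-associated glycoprotein gene. Of 4 inner cell mass markers 2 were lower, NANOG at -1.77 ± 0.13 (adjusted p = 0.00691) and TDGF1 at -2.22 ± 0.24 (adjusted p = 0.00900). POU5F1 (-0.23) and SOX2 (-0.10) were not called. Of 3 tested primitive endoderm markers 2 were lower, with a median of -0.74. CDX2, the trophectoderm master regulator, gave -0.35 ± 0.09 and GATA3 -0.40 ± 0.13, neither past the threshold (adjusted p = 0.0708 and 0.114). CDX2 was above background on 6 of 8 arrays in vitro and 8 of 8 in vivo, so it entered the test through the in vivo embryos alone. Without replicate 1, 3 or 4 the count of lower trophectoderm markers was 1, and that of primitive endoderm markers was 0, 1 and 1. Without replicate 1 the count for the inner cell mass was 1. The share of trophectoderm cells was not measured.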

How the data were processed

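Per the labels' protocols, PicoPure RNA underwent RiboAmp amplification and ULS dye labelling. The authors deposited, for 8 arrays, each spot's Cy3 and Cy5 intensity with its local background, and a table of log2 ratios. The deposited log2 ratios correlated with log2 Cy5 over Cy3 at 0.964 to 0.975 (slide 58) and -0.994 to -0.988 (slide 61) over 5957 bright probes, so each column sets in vitro over in vivo. Their medians were -0.00385, 0.00131, -0.000779 and -0.00208 on slide 58 and 0.00119, 0.000800, -0.00359 and -0.00255 on slide 61. Their normalization is not given in the labels or headers.

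Normexp background correction with an offset of 50 came before loess within each array (limma 3.58.1, R 4.3.3; figures with Python 3.11.15 and matplotlib 3.10.9). Probes entered the test if brighter than the 95th percentile of 153 negative controls on all 8 arrays in at least 1 kind of embryo. Levels used Aquantile scaling. Arrays of 1 replicate number deviated together from their slide's mean (r 0.703 to 0.894, highest with another number 0.149), so the labels' numbers pair them and the 2 arrays were averaged, n = 4. The fit was checked on simulated data. With 8 arrays, their number limits the precision.

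Symbols come from the platform annotation, for 21790 probes; a gene is its brightest tested probe (10188 genes), called by the p adjusted over probes. Named are all members, all tested other keratins, called genes of each list (up to 4, or all of 5 or fewer), the 3 nearest genes per member, and a few further list members and markers chosen after their values were seen. Alternatives covered background, normalization, the dim-probe filter, the prior, slides, replicates and the deposited ratios. The members and lists were chosen with earlier results of these data known. No coordinates are given, as the files name no genome build.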

Additional observations from a re-analysis of the deposited data

Results flagged for a closer look

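KRT8 differed between the dye orientations: slide 58 minus slide 61 was 1.77 on the log2 scale, and 0.97 to 2.26 in the 4 replicates. In vitro KRT8 spots were near the ceiling on 4 of 4 arrays of slide 58 and on 0 of 4 of slide 61. KRT19 also differed between the orientations, by -0.76, with replicate differences from -0.85 to -0.58, and none of its spots was near the ceiling. As 68.3% of tested probes were called for such a difference, a call here is common on these arrays.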

How the results depend on the processing

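KRT7, KRT8, KRT18 and KRT19 kept a mean ratio below 0 under all 16 alternatives, and KRT18 and KRT19 each stayed past the threshold under 12. Without 1 replicate each, KRT7 ran from -0.30 to -0.20, KRT8 from -1.33 to -0.85, KRT18 from -1.65 to -1.21 and KRT19 from -2.94 to -2.02, the probes called lower from 276 to 3890 and those called higher from 211 to 3300. KRT18 at -1.46 missed the threshold with no filter on dim probes (adjusted p = 0.0508), where 43795 probes are tested, and KRT19 at -2.50 with a trended prior (adjusted p = 0.293); the cause of the latter was not tested. KRT8 passed with median centring at -0.85, with pixel medians at -1.13 (chosen after seeing the data) and on slide 61 at -1.89, and KRT7 on slide 58 at -0.33. Slide 58 alone called 3855 probes lower and 3064 higher, and slide 61 alone 3195 higher. Taken per gene, 1285 were lower and 940 higher. In the replicate block 2678 probes were higher. That fit counts 8 arrays and changed no member's call. On slide 58 the difference KRT8 minus KRT7 was 0.20, KRT18 minus KRT8 -1.36 and KRT19 minus KRT8 -2.75. On slide 61 they were -1.71, 0.46 and -0.23. Signal over background limits KRT7, and the scanner's range limits KRT8.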
